A study of Mus musculus with 7 samples.

Results

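The fibrillar collagens are the collagen chains that assemble into the cross-banded fibrils of connective tissue. The 10 genes described here, Col1a1, Col1a2, Col3a1, Col5a1, Col5a2, Col5a3, Col11a1, Col11a2, Col24a1 and Col27a1, were taken by name from the 54735 gene symbols of a count table, and all 10 had enough counts to be tested. They were followed over 7 bulk RNA sequencing libraries of mouse cardiac fibroblasts, labelled by a genetic reporter and sorted for green fluorescence. The libraries fell into 3 groups, Postn P7 (n = 2), Tcf21 P30 (n = 3) and Tcf21 P7 (n = 2). Postn P7 cells came from 7-day-old mice of genotype PostnMCM;R26eGFP, Tcf21 P30 cells from 30-day-old mice of genotype Tcf21MCM;R26eGFP, and Tcf21 P7 cells from 7-day-old mice of that same genotype. MCM is MerCreMer, a recombinase that acts after tamoxifen is given, and R26eGFP is the reporter that it switches on, which all groups carried. A sorted cell is therefore one in which the driver gene, Postn or Tcf21, was active while tamoxifen was present, or a descendant of such a cell. It need not express that gene at collection. Male and female hearts were pooled, and the labels do not give the day of tamoxifen treatment. Nor do they say that libraries came from separate animals or litters, so p-values reflect only the spread among these 7 libraries, part of which may be technical.

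A fibrillar collagen is made as a procollagen whose long, nearly uninterrupted triple helix is flanked by propeptides. Type I collagen joins chains from Col1a1 and Col1a2, and type III is made of Col3a1 chains alone. These are the bulk fibrils of the heart's interstitium. Type V chains (Col5a1, Col5a2, Col5a3) and type XI chains (Col11a1, Col11a2) are minor components that sit inside the fibrils and set their number and width. Type XI is best known from cartilage. Col24a1 and Col27a1 encode types XXIV and XXVII, a separate branch of the family known mainly from developing bone and cartilage. In the heart, fibroblasts are the main source of types I and III.

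The genes lie on 8 chromosomes of the mouse genome (build GRCm38, GENCODE annotation), and each is annotated as protein coding. Col3a1 (ENSMUSG00000026043.18, chromosome 1, 45311538 to 45349706, plus strand) and Col5a2 (ENSMUSG00000026042.16, chromosome 1, 45374321 to 45503282, minus strand) are neighbours. They lie 24614 bases apart on opposite strands with 0 annotated genes between them. Col11a1 (ENSMUSG00000027966.20, 114030540 to 114220718) and Col24a1 (ENSMUSG00000028197.4, 145292472 to 145552011) are both on the plus strand of chromosome 3, with 554 genes between them. Col5a3 (ENSMUSG00000004098.7) occupies 20770050 to 20815067 on the minus strand of chromosome 9. The other 5 lie on plus strands. Col1a1 (ENSMUSG00000001506.10) spans 94936224 to 94953042 on chromosome 11, and Col1a2 (ENSMUSG00000029661.16) spans 4504814 to 4541544 on chromosome 6. Col5a1 (ENSMUSG00000026837.15) spans 27886425 to 28039514 on chromosome 2, Col11a2 (ENSMUSG00000024330.17) 34039437 to 34066685 on chromosome 17, and Col27a1 (ENSMUSG00000045672.15) 63214004 to 63334991 on chromosome 4. Exons of Col5a1 overlap those of 2 genes on the opposite strand, 2810430I11Rik over 99 bases and Gm13372 over 113 bases. The strand setting of the counting is unknown, so reads in those stretches could not be told apart.

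Promoter sequence was matched for 8 of the 10 genes in a RefSeq table of build GRCm38.p6. The 250 bases before the start of transcription are shown for the 4 genes whose levels set the results apart, Col3a1 as the most abundant chain, Col5a3 as the chain that went against the others, and Col11a1 and Col24a1 as the chains with the largest differences. Capitals mark the CCAAT box (CCAAT), the TATA box (TATAAA) and the GC box (GGGCGG), each searched on both strands, so that a match on the other strand reads as its reverse complement.
Col3a1: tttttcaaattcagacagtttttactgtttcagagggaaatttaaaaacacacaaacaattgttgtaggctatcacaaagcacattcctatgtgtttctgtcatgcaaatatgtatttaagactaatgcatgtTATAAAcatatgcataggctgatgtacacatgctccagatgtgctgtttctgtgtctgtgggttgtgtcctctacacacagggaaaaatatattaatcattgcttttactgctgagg
Col5a3: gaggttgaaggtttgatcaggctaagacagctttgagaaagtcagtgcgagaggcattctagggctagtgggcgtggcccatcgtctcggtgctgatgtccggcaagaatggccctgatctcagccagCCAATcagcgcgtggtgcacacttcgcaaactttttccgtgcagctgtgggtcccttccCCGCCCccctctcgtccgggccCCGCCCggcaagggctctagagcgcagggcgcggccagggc
Col11a1: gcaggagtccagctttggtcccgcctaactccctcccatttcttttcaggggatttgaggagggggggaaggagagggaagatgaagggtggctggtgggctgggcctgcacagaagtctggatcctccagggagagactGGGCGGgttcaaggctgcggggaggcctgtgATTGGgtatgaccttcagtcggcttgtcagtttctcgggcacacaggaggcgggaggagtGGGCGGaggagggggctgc
Col24a1: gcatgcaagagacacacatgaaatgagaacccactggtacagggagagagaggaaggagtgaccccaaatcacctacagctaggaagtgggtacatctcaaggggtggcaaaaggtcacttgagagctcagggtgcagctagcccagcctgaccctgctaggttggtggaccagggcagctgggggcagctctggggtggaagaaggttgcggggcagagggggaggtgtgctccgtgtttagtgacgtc
These windows are chr1:45311288-45311537 on the plus strand for Col3a1, chr9:20815068-20815317 on the minus strand for Col5a3, chr3:114030290-114030539 on the plus strand for Col11a1 and chr3:145292222-145292471 on the plus strand for Col24a1. Counted back from the base before the start as -1, the Col3a1 window held TATAAA from -117 and neither of the other motifs. The Col5a3 window held CCAAT from -122 and GGGCGG on the other strand from -63 and -41. The Col11a1 window held GGGCGG from -110 and -19 and CCAAT on the other strand from -79, and the Col24a1 window held none of the 3 motifs. Among 32851 promoter windows of the same length, 33.8% held CCAAT, 12.4% TATAAA and 32.7% GGGCGG. A match is a description of the letters, and a window without one says nothing about which factors bind there.

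Libraries held 15207835 to 18519528 counts. Fibrillar collagens took 3.49% and 4.0% of all counts in Postn P7, 2.12%, 2.57% and 2.48% in Tcf21 P30, and 4.39% and 4.35% in Tcf21 P7. The fibroblast genes Pdgfra and Dcn were at 660 CPM or more and 2422 CPM or more in every library, where CPM is the count scaled to a common library total with TMM, a trimmed mean of log ratios. Transcripts of other cell types were present as well. Summed over 12 endothelial markers, Tcf21 P30 replicate 1 held 4436 CPM and Postn P7 replicate 1 held 1968 CPM, against 1283 to 1567 CPM in the other libraries. Summed over 12 macrophage markers, the level was 370 and 513 CPM in Postn P7 cells, 447 to 663 CPM in Tcf21 P30 and 1279 and 1275 CPM in Tcf21 P7. The part of these cells in the collagen results was not tested. The counts of the Tcf21 P7 libraries differed from each other by less than those of any other pair of replicates, at a chi-square per degree of freedom of 3.43 against 9.90 to 38.1, which is still above sampling noise.

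**Figure D1:**
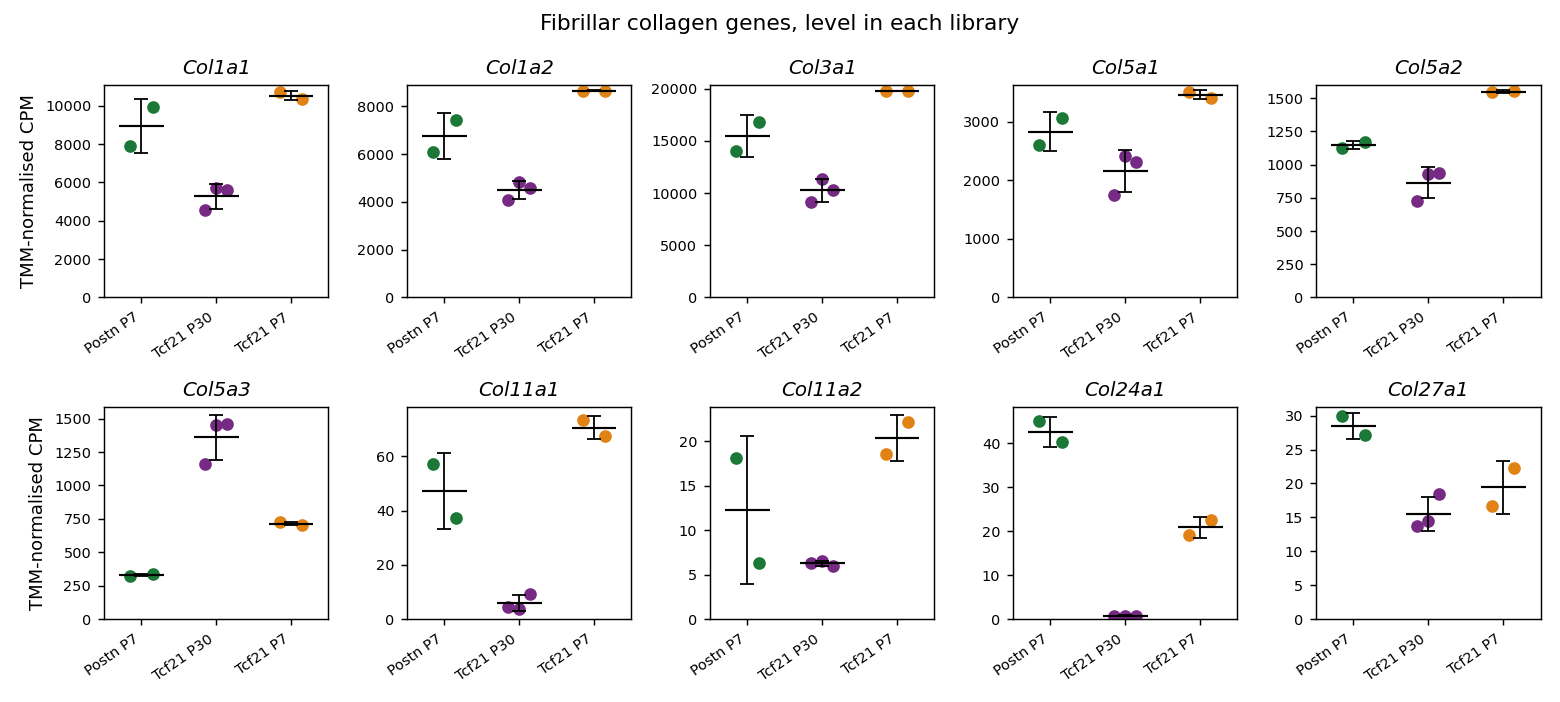
Level of each fibrillar collagen gene in every library, in TMM-normalised CPM on an axis that starts at 0, with 1 panel per gene and the groups Postn P7, Tcf21 P30 and Tcf21 P7 side by side. Points are libraries and the bar is the group mean; Col5a3 stands highest in Tcf21 P30, Col24a1 highest in Postn P7 and near 0 in Tcf21 P30, and the abundant chains highest in Tcf21 P7.

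Per kilobase of exon, the order of the chains was the same at the top in all 3 groups. Col3a1 led with 1574 ± 203 CPM per kilobase in Postn P7, 1045 ± 113 in Tcf21 P30 and 2018 ± 2.5 in Tcf21 P7 (mean ± SD, n = 2, 3 and 2). Col1a1 followed at 1360 ± 216, 805 ± 98.9 and 1605 ± 36.7 CPM per kilobase in the same groups, then Col1a2 at 544 ± 77.6, 362 ± 30.6 and 696 ± 1.61, and Col5a1 at 333 ± 39.6, 253 ± 42.6 and 407 ± 9.29. The next places depended on the group. Col5a2 stood above Col5a3 in both groups of 7-day-old mice, at 120 ± 3.37 against 48.3 ± 1.15 CPM per kilobase in Postn P7 and at 162 ± 0.860 against 105 ± 1.70 in Tcf21 P7. In Tcf21 P30 that order was turned round, with Col5a3 at 200 ± 24.9 and Col5a2 at 90.2 ± 12.3 CPM per kilobase. The remaining 4 chains were all under 6 CPM per kilobase in every group. Levels between genes depend on the gene length used. With the longest transcript in place of all exons, Col3a1 still led and Col1a2 lay closer to Col1a1, at 841 ± 71.1 against 891 ± 109 CPM per kilobase in Tcf21 P30.

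The first question the design poses is how cells traced by Tcf21 differ between day 30 and day 7. Fibrillar collagen transcripts were lower at day 30 for 8 of the 10 genes, higher for Col5a3 and without a call for Col27a1. The chains of types I and III were at 0.50 to 0.52 of their day 7 level, Col11a1 was 12.1-fold lower and Col24a1 27.9-fold lower. Col5a3 was 1.90-fold higher. A gene is called where the adjusted p of edgeR's quasi-likelihood test, with Benjamini-Hochberg adjustment over all 17636 genes tested, was under 0.05. Across those genes 15% were called lower and 16.7% higher, so the share called lower was above the background and the share called higher was not. Libraries of the groups did not overlap for 9 of the 10 genes, against 61.8% of all genes tested. The median log2 fold change was -0.95 over the 10 genes and 0.03 over all genes tested. In bulk samples, fewer cells of a type and less RNA per cell cannot be told apart.

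For the bulk fibril chains, Col1a1 was at 4536, 5712 and 5601 CPM in Tcf21 P30, against 10707 and 10366 CPM in Tcf21 P7. Every day 30 library lay below both day 7 libraries, and the log2 fold change was -0.996 ± 0.15 (SE, adjusted p = 0.00232 in edgeR). Col1a2, the partner chain of Col1a1 in type I collagen, was at 4083, 4828 and 4588 CPM in Tcf21 P30, against 8667 and 8638 CPM in Tcf21 P7. Col3a1, the type III chain, was at 9106, 11328 and 10335 CPM in Tcf21 P30, against 19793 and 19827 CPM in Tcf21 P7. Neither gene's groups overlapped. Their log2 fold changes were -0.94 ± 0.14 and -0.95 ± 0.15 (adjusted p = 0.00167 and 0.00240 in edgeR), within the standard error of that of Col1a1.

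The type V chains did not move together. Col5a1, a chain found in most forms of type V collagen, was at 1739, 2411 and 2305 CPM in Tcf21 P30, against 3512 and 3400 CPM in Tcf21 P7. Its log2 fold change was -0.68 ± 0.16 (adjusted p = 0.0133 in edgeR), and the call was lost when either Tcf21 P7 library was left out (adjusted p = 0.120 and 0.103). Col5a2, which joins Col5a1 in the most common form, was at 728, 928 and 938 CPM in Tcf21 P30, against 1545 and 1557 CPM in Tcf21 P7, a log2 fold change of -0.84 ± 0.13 (adjusted p = 0.00204 in edgeR). Both genes were lower in every day 30 library than in either day 7 library. Col5a3, the third type V chain, which is found in a more restricted set of tissues, was at 1164, 1451 and 1463 CPM in Tcf21 P30, against 724 and 707 CPM in Tcf21 P7. Here every day 30 library was above both day 7 libraries, with a log2 fold change of 0.93 ± 0.12 (adjusted p = 0.00121 in edgeR).

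The rare chains had the largest differences. Col11a1, the type XI chain closest in kind to Col5a1, was at 4.35, 3.87 and 9.18 CPM in Tcf21 P30, against 73.5 and 67.7 CPM in Tcf21 P7. The log2 fold change was -3.59 ± 0.39 (adjusted p = 0.00148 in edgeR), and replicate 3 stood above the other day 30 libraries but far below day 7. Col11a2, another type XI chain, was at 6.31, 6.53 and 5.99 CPM in Tcf21 P30, against 18.5 and 22.2 CPM in Tcf21 P7. Its groups did not overlap and its log2 fold change was -1.70 ± 0.38 (adjusted p = 0.0146 in edgeR), but without Tcf21 P7 replicate 1, Tcf21 P7 replicate 2 or Tcf21 P30 replicate 3 the adjusted p was 0.0652, 0.0994 and 0.0605. Col24a1 was nearly undetected at day 30, with 10, 13 and 14 counts or 0.631, 0.824 and 0.769 CPM in Tcf21 P30, against 19.2 and 22.6 CPM in Tcf21 P7. That was the family's largest log2 fold change in this comparison, -4.80 ± 0.17 (adjusted p = 8.66e-06 in edgeR), and the groups were far apart. Col27a1, the other chain of that branch, was at 13.7, 14.5 and 18.4 CPM in Tcf21 P30, against 16.7 and 22.2 CPM in Tcf21 P7. These groups overlapped, and the log2 fold change of -0.32 had a 95% interval of -0.74 to 0.09 (adjusted p = 0.206 in edgeR).

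Markers moved with age as well, where 15% of all genes tested were called lower and 16.7% higher, or 31.8% in either direction. Of 12 macrophage markers, 9 were called lower at day 30, and 0 of 12 endothelial markers were called, although Tcf21 P30 replicate 1 had the highest sum of all libraries. Among 12 tested genes known from valve, tendon and cartilage, 5 were called lower and 2 higher. Their sum was 538 to 754 CPM in Tcf21 P30, against 669 and 645 CPM in Tcf21 P7. The cartilage gene Matn1 was at 0 counts in all 7 libraries. Acan, a cartilage proteoglycan among the 5 called lower, was at 1.2, 0.634 and 0.33 CPM in Tcf21 P30, against 5.06 and 4.04 CPM in Tcf21 P7. The 2 called higher were Comp and Chad, with log2 fold changes of 2.41 and 1.70. Comp was at 142 ± 20.0 CPM in Tcf21 P30 and 26.7 ± 2.75 CPM in Tcf21 P7 (SD, n = 3 and 2). Chad was at 33.3 ± 6.04 and 10.3 ± 1.33 CPM in those groups. Fibroblast markers other than collagens summed, over 9 genes, to 22251, 28564 and 25840 CPM in Tcf21 P30, against 11184 and 11565 CPM in Tcf21 P7. Most of that difference was in Gsn, an actin-severing protein, at a log2 fold change of 2.29 ± 0.21 (adjusted p = 0.000203 in edgeR). Pdgfra, a growth factor receptor of fibroblasts, was also called higher, with a log2 fold change of 0.50 ± 0.13 (adjusted p = 0.0251 in edgeR). Of these 9 genes, 3 were called higher (Gsn, Dpep1 and Pdgfra), 2 were called lower, the same direction as types I and III (Tbx20, a cardiac transcription factor, at -1.30 with an adjusted p of 0.00114, and Pdgfrl at -0.62 with an adjusted p of 0.0262 in edgeR), and 4 were not called (Tcf21, Dcn, Lum and Mfap5). With both endothelial-rich libraries left out the count of fibrillar collagens called lower was again 8. The libraries kept still held 1283 to 1567 CPM summed over the 12 endothelial markers. The part of the endothelial, macrophage and cartilage genes in the collagen differences was not tested.

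**Figure D2:**
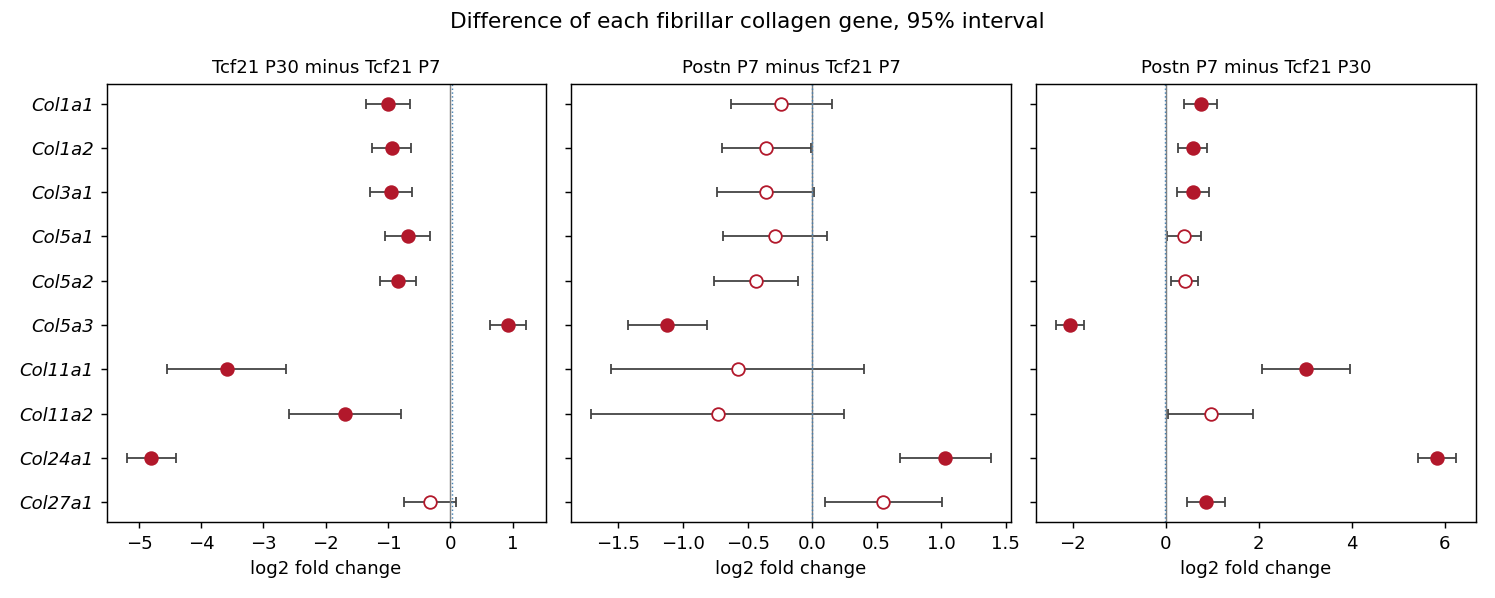
Log2 fold change of each fibrillar collagen gene in the 3 comparisons, with its 95% interval. Filled points passed the adjusted p threshold, open points did not, and the dotted line is the median of all genes tested; at day 30 every chain but Col5a3 lies left of 0, and Col5a3 and Col24a1 are the filled points between the lineages at day 7.

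The second question is how Postn-traced cells differ from Tcf21-traced cells at day 7. Fewer fibrillar collagens were called here, 1 lower (Col5a3) and 1 higher (Col24a1), with 8 not called. The background was 5.49% of all genes lower and 6.52% higher. Libraries of the groups did not overlap for any of the 10 genes, against 64% of all genes tested, and 8 were lower and 2 higher in Postn P7. The median log2 fold change was -0.36 over the family and 0.00 over all genes tested.

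Col5a3 was at 323 and 334 CPM in Postn P7 cells, against 724 and 707 CPM in Tcf21 P7. It was 2.18-fold lower, a log2 fold change of -1.12 ± 0.13 (SE, adjusted p = 0.00491 in edgeR). Col24a1 was at 45.1 and 40.3 CPM in Postn P7 cells, against 19.2 and 22.6 CPM in Tcf21 P7. It was 2.04-fold higher, a log2 fold change of 1.03 ± 0.15 (adjusted p = 0.00945 in edgeR). Both calls were lost when a Tcf21 P7 library was left out. Without replicate 1 the adjusted p was 0.0690 for Col5a3 and 0.109 for Col24a1, without replicate 2 it was 0.0640 and 0.0694, and the log2 fold changes stayed between -1.12 and -1.10 for Col5a3 and between 0.93 and 1.17 for Col24a1.

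The abundant chains were lower in Postn P7 by amounts that did not pass the test. Col1a1 was at 7925 and 9927 CPM in Postn P7 cells, against 10707 and 10366 CPM in Tcf21 P7, with a 95% interval of the log2 fold change from -0.63 to 0.15. Col3a1 was at 14044 and 16864 CPM in Postn P7 cells, against 19793 and 19827 CPM in Tcf21 P7, with an interval of -0.74 to 0.02. The Postn P7 libraries were farther from each other than the Tcf21 P7 libraries for both genes. Col1a2 (6084 and 7448 CPM in Postn P7 cells) and Col5a1 (2592 and 3068 CPM in Postn P7 cells) also lay below both Tcf21 P7 libraries, with log2 fold changes of -0.35 and -0.29 (adjusted p = 0.155 and 0.308 in edgeR). Col5a2 was at 1125 and 1171 CPM in Postn P7 cells, against 1545 and 1557 CPM in Tcf21 P7, and missed the threshold with a log2 fold change of -0.43 ± 0.14 (adjusted p = 0.0805 in edgeR). It passed in DESeq2, with no filter on low counts, when only these groups were fitted, and without Tcf21 P30 replicate 1 (adjusted p = 0.0349, 0.0262, 0.0222 and 0.0149).

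Among the rare chains, Col11a1 was at 57.3 and 37.4 CPM in Postn P7 cells, against 73.5 and 67.7 CPM in Tcf21 P7, and its interval was wide, from -1.56 to 0.41. Col11a2 differed between the Postn P7 libraries themselves, at 18.1 and 6.34 CPM, against 18.5 and 22.2 CPM in Tcf21 P7. It was not called (log2 fold change -0.73 ± 0.42, adjusted p = 0.286 in edgeR), but with Postn P7 replicate 1 left out it was -1.69 with an adjusted p of 0.0144, so that library decides the value. Postn P7 replicate 1 was also the library with the higher endothelial sum. Its sum over 8 epicardial markers was 69.0 CPM, against 6.47 CPM in replicate 2 and 25.3 and 21.6 CPM in Tcf21 P7. The part of these cells in the Col11a2 level was not tested. Col27a1 was at 29.9 and 27.2 CPM in Postn P7 cells, against 16.7 and 22.2 CPM in Tcf21 P7, and was not called either (0.55 ± 0.20, adjusted p = 0.103 in edgeR).

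Of 12 macrophage markers, 10 were called lower in Postn P7, and of 9 pericyte markers 1 was called higher. Across all genes tested, 5.49% were called lower and 6.52% higher. The pericyte sum was 2269 and 1659 CPM in Postn P7 cells, against 1139 and 1087 CPM in Tcf21 P7. The part of these cells in the difference of Col5a3 and Col24a1 was not tested. Neither driver gene was called between the lineages at day 7 (adjusted p = 0.114 for Postn and 0.655 for Tcf21 in edgeR), which does not show equal levels. Postn itself was at 2995 and 3695 CPM in Postn P7 cells, 756, 907 and 821 CPM in Tcf21 P30, and 4258 and 4549 CPM in Tcf21 P7. Tcf21 was at 343 and 428 CPM in Postn P7 cells, 271, 391 and 352 CPM in Tcf21 P30, and 347 and 354 CPM in Tcf21 P7.

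The third comparison, Postn P7 with Tcf21 P30, changes lineage and age at once, and they cannot be told apart in it. Of the 10 genes, 6 were called higher in Postn P7, where 11.7% of all genes were, and Col5a3 was called lower, where 12.5% of all genes were. The groups did not overlap for 9 of the 10, against 50.6% of all genes. Col24a1 was at 45.1 and 40.3 CPM in Postn P7 cells, against 0.631, 0.824 and 0.769 CPM in Tcf21 P30, a log2 fold change of 5.83 ± 0.17 (adjusted p = 5.01e-06 in edgeR). Col11a1 was at 57.3 and 37.4 CPM in Postn P7 cells, against 4.35, 3.87 and 9.18 CPM in Tcf21 P30, a log2 fold change of 3.02 ± 0.39 (adjusted p = 0.00302 in edgeR). Col5a3 was at 323 and 334 CPM in Postn P7 cells, against 1164, 1451 and 1463 CPM in Tcf21 P30, a log2 fold change of -2.05 ± 0.13 (adjusted p = 4.06e-05 in edgeR). For these 3 genes the groups lay far apart.

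Col27a1 was called higher in Postn P7 as well, at 29.9 and 27.2 CPM against 13.7, 14.5 and 18.4 CPM in Tcf21 P30 (log2 fold change 0.88 ± 0.18, adjusted p = 0.00925 in edgeR). Col1a1 was higher by 0.76 ± 0.15 (adjusted p = 0.00931 in edgeR), Col1a2 by 0.59 ± 0.14 and Col3a1 by 0.59 ± 0.15 on the log2 scale (adjusted p = 0.0159 and 0.0224 in edgeR). All 3 of these calls were lost without Postn P7 replicate 2 (adjusted p = 0.0635, 0.105 and 0.132), and that of Col27a1 without Postn P7 replicate 1 (adjusted p = 0.0569). The calls of Col1a2 and Col3a1 were also lost without Tcf21 P7 replicate 1 (adjusted p = 0.0619 and 0.0851), Tcf21 P7 replicate 2 (0.0620 and 0.0853) or Tcf21 P30 replicate 3 (0.0656 and 0.0903). Col5a1, Col5a2 and Col11a2 were not called, with 95% intervals of 0.03 to 0.76, 0.12 to 0.70 and 0.06 to 1.87. The adjusted p of Col5a2 was 0.0501 in edgeR, so small changes of the settings moved it across the threshold. Col5a1 and Col11a2 passed in DESeq2 (adjusted p = 0.0492 and 0.0467). They also passed with no filter on low counts (adjusted p = 0.0115 and 9.43e-05 in edgeR). Col11a2 was the gene whose groups overlapped, at 18.1 and 6.34 CPM in Postn P7 cells, against 6.31, 6.53 and 5.99 CPM in Tcf21 P30. Only Postn P7 replicate 1 lay above all Tcf21 P30 libraries. With no filter the log2 fold change of Col11a2 was 0.99 ± 0.22 (SE), against 0.97 ± 0.38 in the main fit.

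Markers of other cells were compared here too, where 24.2% of all genes were called in either direction. Of 12 tested valve, tendon and cartilage-like genes, 5 were called higher and 3 lower in Postn P7, and the list median was 0.74 on the log2 scale. Their sum was 598 and 593 CPM in Postn P7 cells, against 538, 754 and 621 CPM in Tcf21 P30. Acan, among the 5 called higher, was at 6.24 and 2.82 CPM in Postn P7 cells, against 1.2, 0.634 and 0.33 CPM in Tcf21 P30. Comp and Chad were among the 3 called lower, with log2 fold changes of -3.59 and -2.84. Of 6 tested Schwann cell genes 2 were called higher and 1 lower. Of 9 pericyte genes 1 was called higher, and of 12 endothelial and 12 macrophage genes 2 each were called lower. For pericyte, endothelial and macrophage genes these were smaller shares than that of all genes. The part of these genes in the collagen differences was not tested.

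Across the 3 groups, Col1a1, Col1a2, Col3a1, Col5a1, Col5a2, Col11a1 and Col11a2 thus had the order Tcf21 P7, Postn P7, Tcf21 P30 by mean level. Of these 7 genes, 0 were called between Postn P7 and Tcf21 P7. Col5a1, Col5a2 and Col11a2 were not called between Postn P7 and Tcf21 P30 either, and the Col11a2 groups overlapped there. Col5a3 ran from Tcf21 P30 through Tcf21 P7 to Postn P7, with each step called. Col24a1 ran from Postn P7 through Tcf21 P7 to Tcf21 P30, again with each step called, and Col27a1 had the same order with only its ends called. Because the Tcf21 P7 libraries serve as the control for both the age and the lineage comparison, likeness between those fold changes is not independent evidence.

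**Figure D3:**
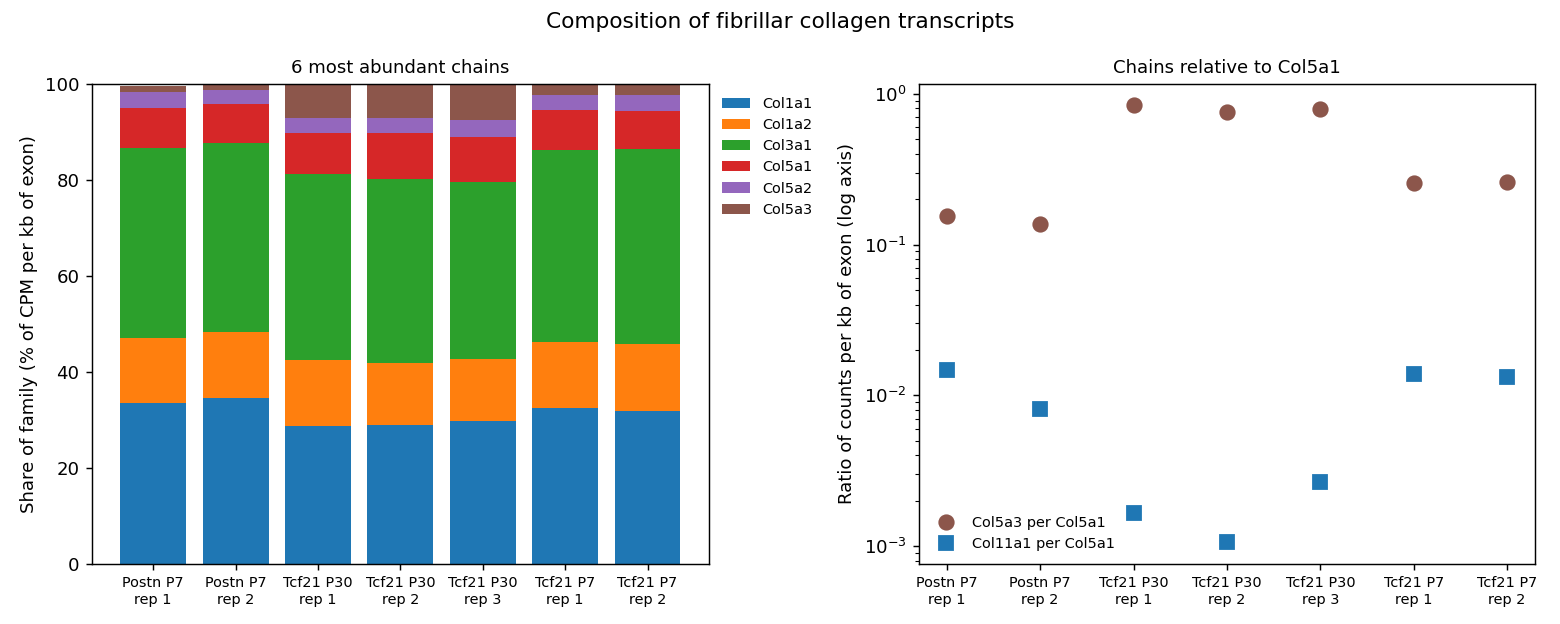
Left, share of each of the 6 most abundant chains in the family's total CPM per kilobase of exon, in percent, with 1 bar per library. Right, ratio of Col5a3 and of Col11a1 to Col5a1 per kilobase of exon on a log axis; Col5a3 took 7.08% to 7.51% of the family in Tcf21 P30 libraries, 1.12% and 1.31% in Postn P7 and 2.09% and 2.11% in Tcf21 P7.

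Ratios between chains of 1 library do not depend on how the libraries were scaled. Type V chains shifted in make-up. Col5a3 per Col5a1, by counts per kilobase of exon, was 0.155 and 0.136 in Postn P7, 0.835, 0.751 and 0.792 in Tcf21 P30, and 0.257 and 0.259 in Tcf21 P7. Libraries of 1 group stayed close together and the groups were far apart. Col11a1 per Col5a1 was 0.0147 and 0.00812 in Postn P7, 0.00167, 0.00107 and 0.00265 in Tcf21 P30, and 0.0140 and 0.0133 in Tcf21 P7. Col24a1 per Col1a1 was 0.00490 and 0.00350 in Postn P7, 0.000120, 0.000124 and 0.000118 in Tcf21 P30, and 0.00155 and 0.00187 in Tcf21 P7. These 3 ratios follow from the differences above and are given as a description.

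Ratios between the abundant chains differed less between groups. Col1a2 per Col1a1, the chains of type I collagen, was 0.452 ± 0.0218 in Tcf21 P30 and 0.434 ± 0.00891 in Tcf21 P7 (SD, n = 3 and 2), and the groups overlapped (two-sided exact permutation test, p = 0.4). Col3a1 per Col1a1 was 1.30 ± 0.0585 in Tcf21 P30 and 1.26 ± 0.0303 in Tcf21 P7, also with overlap (exact permutation p = 0.5). Col5a1 per Col1a1 was higher in every day 30 library, at 0.296, 0.326 and 0.318 in Tcf21 P30, against 0.2536 in both Tcf21 P7 libraries. Its exact permutation p of 0.1 is the smallest that 3 against 2 libraries allow (0.25 after adjustment over 15 such tests), so this test cannot pass 0.05 for any of these ratios. Col5a2 per Col5a1 was 0.361 ± 0.0328 in Postn P7, 0.357 ± 0.0153 in Tcf21 P30 and 0.397 ± 0.0112 in Tcf21 P7, with every Tcf21 P30 library below both Tcf21 P7 libraries (exact permutation p = 0.1, n = 3 and 2). In Postn P7, Col1a2 per Col1a1 was 0.401 ± 0.00649, against 0.434 ± 0.00891 in Tcf21 P7, where 2 against 2 libraries cannot go below an exact permutation p of 0.333.

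The enzymes that hydroxylate, glycosylate and fold procollagen were described from a list of 21 genes, all tested. Here and for the lists that follow, a value alone in parentheses after a gene is its log2 fold change. In Tcf21 P30 against Tcf21 P7, 7 were called lower and 2 higher, where 15% of all genes were called lower and 16.7% higher, with a list median of -0.27 on the log2 scale. Most of these calls rested on having both Tcf21 P7 libraries, since 1 gene was called lower and 0 higher when either was left out. P4ha3, a catalytic subunit of prolyl 4-hydroxylase, which stabilises the triple helix, had the largest difference at 5.47 ± 1.47 CPM in Tcf21 P30 and 44.4 ± 0.656 CPM in Tcf21 P7 (SD, n = 3 and 2). Its log2 fold change was -3.02 ± 0.22 (adjusted p = 0.000100 in edgeR). P4ha1, another catalytic subunit of the same enzyme, was called higher, with a log2 fold change of 0.56 ± 0.10 (adjusted p = 0.00425 in edgeR), and Colgalt2, which adds galactose to hydroxylysine, with a log2 fold change of 0.77 ± 0.16 (adjusted p = 0.00911 in edgeR). Fkbp10, a collagen chaperone, was called lower at a log2 fold change of -0.77 ± 0.16 (adjusted p = 0.00805 in edgeR). In Postn P7 against Tcf21 P7 the list had 3 of 21 called lower and 0 higher, near the 12% of all genes called in either direction. They were Colgalt2 (-0.94), the collagen chaperone Serpinh1 (-0.51) and the prolyl isomerase Ppib (-0.38). The direction of that count depended on scaling, with 2 called lower and 2 higher when libraries were scaled by size alone.

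Among genes of procollagen export and collagen transcription, 15 of 17 listed were tested. The 3 called in Tcf21 P30 against Tcf21 P7 and the 1 in Postn P7 against Tcf21 P7 were smaller shares than the 31.8% and 12% of all genes called in either direction there. In Tcf21 P30 against Tcf21 P7, Scx, a transcription factor of tendon and valve that acts on type I collagen genes, was called lower at a log2 fold change of -1.41, with 4.16 ± 1.51 CPM in Tcf21 P30 and 11.1 ± 0.119 CPM in Tcf21 P7. Larp6, a protein that binds type I collagen mRNAs, was called higher (1.35), and so was Mia2, which helps load large cargo for secretion (0.40). In Postn P7 against Tcf21 P7 the called gene was Smad3, a mediator of transforming growth factor signals, which was lower (-0.70).

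Of 8 tested genes for propeptide cleavage, 1 was called higher and 2 lower in Tcf21 P30 against Tcf21 P7, near the 31.8% of all genes called in either direction. Pcolce2, an enhancer of the protease that removes the C-terminal propeptide, was at 442 ± 64.4 CPM in Tcf21 P30 and 114 ± 4.90 CPM in Tcf21 P7, a log2 fold change of 1.96 ± 0.19 (adjusted p = 0.000321 in edgeR). The proteases Adamts14 (-1.57), which removes N-terminal propeptides, and Tll2 (-0.86) were the called genes on the lower side. In Postn P7 against Tcf21 P7, Tll2 (-1.31) and Pcolce2 (-1.10) were called lower and 0 were called higher. Of 7 cross-linking genes, 1 was called higher and 2 lower in that comparison of ages, beside the same 31.8% of all genes. Lox, the lysyl oxidase that joins collagen molecules, was called lower at day 30, with 115 ± 5.86 CPM in Tcf21 P30 and 305 ± 7.69 CPM in Tcf21 P7 (log2 fold change -1.41 ± 0.09, adjusted p = 5.22e-05 in edgeR). Fmod, a small proteoglycan that guides cross-linking, was also called lower (-0.60), and Tgm2, a transglutaminase, was called higher (2.12). The called cross-linking gene in Postn P7 against Tcf21 P7 was Loxl4, which was lower (-0.82).

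The next list held proteins that coat or bind the fibrils. Of 21 genes, 7 were called higher and 9 lower in Tcf21 P30 against Tcf21 P7, where 31.8% of all genes were called in either direction. Without Tcf21 P7 replicate 1 the counts were 4 higher and 7 lower, and without replicate 2 they were 2 higher and 7 lower. Podn, a small leucine-rich proteoglycan, was at 159 ± 18.2 CPM in Tcf21 P30 and 25.1 ± 2.44 CPM in Tcf21 P7, a log2 fold change of 2.66, and Comp, which binds fibrillar collagen in tendon and cartilage, was called higher (2.41). Postn (-2.41) and Fn1, the fibronectin gene (-2.11), were called lower. Fn1 was at 803 ± 58.2 CPM in Tcf21 P30 and 3465 ± 60.0 CPM in Tcf21 P7. In Postn P7 against Tcf21 P7 this list had 5 called lower and 0 higher, where 12% of all genes were called in either direction, with Comp (-1.18), Podn (-0.77), the leucine-rich proteoglycan Prelp (-0.71) and the fibril-associated collagen Col14a1 (-0.54) as the largest. Scaling by library size alone gave 3 lower and 1 higher.

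Of 9 tested collagen receptors, Itga11, the integrin chain that binds type I collagen on fibroblasts, and Ddr2, a receptor tyrosine kinase for fibrillar collagen, were called higher in Tcf21 P30 against Tcf21 P7, and 0 were called lower, a smaller share than the 31.8% of all genes called in either direction. Itga11 was at 217 ± 36.0 CPM in Tcf21 P30 and 33.4 ± 0.318 CPM in Tcf21 P7 (log2 fold change 2.70), and Ddr2 at 511 ± 64.7 and 304 ± 8.41 CPM in those groups (0.75). Among 13 tested collagenases, inhibitors and lysosomal proteases, the inhibitors Timp3 (1.29) and Timp1 (1.15) were called higher and the membrane proteases Mmp16 (-1.21) and Mmp14 (-1.02) lower, a share of the list near that same background. In Postn P7 against Tcf21 P7, the collagen uptake receptor Mrc2 was called lower (-0.71) and Mmp16 higher (0.78), 1 call in each list beside 12% of all genes.

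In Postn P7 against Tcf21 P30, where 24.2% of all genes were called in either direction, the fibril-associated list had 8 called higher and 9 lower and the hydroxylation list 3 higher and 6 lower. Lox was at 355 ± 26.9 CPM in Postn P7 cells and 115 ± 5.86 CPM in Tcf21 P30 (log2 fold change 1.62), and P4ha3 at 51.0 ± 11.2 and 5.47 ± 1.47 CPM in those groups (3.21). Comp (-3.59), Podn (-3.43), Pcolce2 (-3.06) and Itga11 (-2.92) were called lower. Of the genes named from these lists, the 13 called in Postn P7 against Tcf21 P7 all lost their call when either Tcf21 P7 library was left out. Of 23 named in Tcf21 P30 against Tcf21 P7, 16 and 18 kept it without Tcf21 P7 replicate 1 and replicate 2, with Colgalt2, Fkbp10, Fmod, Mia2 and P4ha1 lost in both cases.

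**Figure D4:**
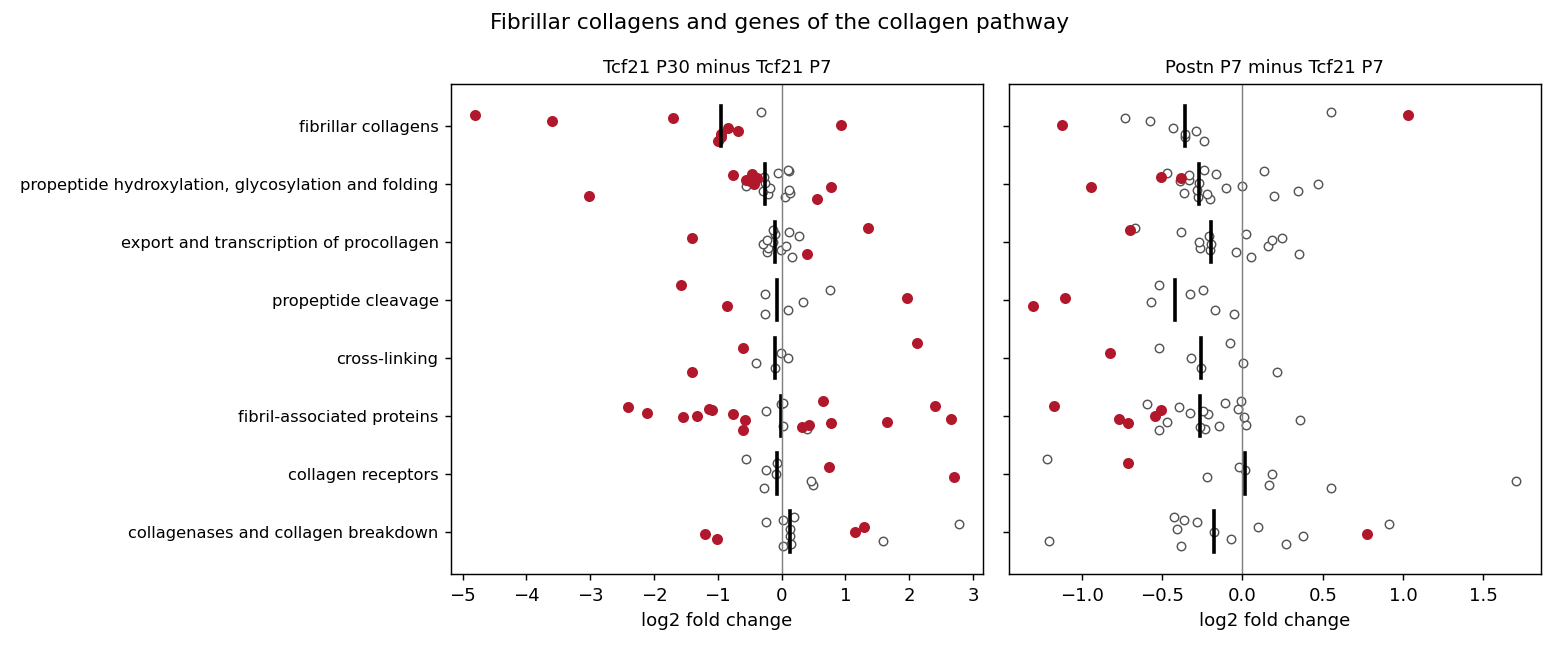
Log2 fold change of the fibrillar collagens and of every tested gene of the collagen pathway lists, with 1 row per list. The panels show Tcf21 P30 against Tcf21 P7 and Postn P7 against Tcf21 P7. Red points passed the adjusted p threshold, the other points did not, and the black bar is the list's median; in Tcf21 P30 against Tcf21 P7 the fibrillar collagens have a median of -0.95 while each pathway list has its median between -0.27 and 0.13.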

How the data were processed

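The authors deposited 1 table of raw counts per gene symbol for 7 libraries, read here as whole numbers without normalization. Per the submitters' processing notes the aligner was STAR and the build GRCm38. The STAR version, counting program, annotation and strand setting are not given in the sources used here. Because counts are per symbol, reads shared by overlapping genes could not be assigned anew.

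In R 4.3.3 with edgeR 4.0.16, filterByExpr kept 17636 of 54735 symbols, TMM factors scaled the 7 libraries, and 1 mean per group was fitted to all of them by the robust quasi-likelihood method. The 3 contrasts used its F-test, with Benjamini-Hochberg adjustment over all genes tested and a threshold of 0.05. Standard errors were taken from the log2 fold change and F, and intervals are at 95%. With 2 or 3 libraries a group, precision is limited by replicates more than by depth, which was 15207835 to 18519528 counts. Ratios within a library used exact permutation tests. Alternatives used DESeq2 1.42.0 and limma 3.58.1, other scalings, filters and samples. The procedure was tested on simulated data. Gene lengths are the union of exons, or the longest transcript, in the GENCODE annotation of GRCm38.

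The fibrillar collagens, the pathway and marker lists and the tests were chosen with earlier results of these data known. Up to 4 called members per list and comparison, those with the largest fold change, are named, beside all fibrillar collagens and the driver genes. The 3 genes most like each collagen are named too, among genes with a mean of at least 10 CPM. Symbols that begin with Gm and a digit or end in Rik were left out of that search. Acan, Matn1, Dcn, Lum, Mfap5, Pdgfra and Pdgfrl were named after their values were seen.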

Additional observations from a re-analysis of the deposited data

How the results depend on the processing

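Over 19 other settings, the 570 recomputed log2 fold changes of the 10 genes kept direction, 519 also kept their side of the threshold, 23 gained a call and 28 lost one. In Tcf21 P30 minus Tcf21 P7, 8 genes were called lower, 6 to 8 with a library left out, 6 with the Tcf21 P7 libraries summed and 7 with a replicate block, under which Col11a2 lost its call (adjusted p = 0.0630). In Postn P7 minus Tcf21 P7, the 1 gene called lower became 2 in DESeq2, 4 with no filter on low counts, 2 with only the groups compared, 3 without both endothelial-rich libraries, 0 to 2 with a library left out and 0 with the Tcf21 P7 libraries summed. The 1 called higher became 0 when summed and 0 to 1 with a library left out. In Postn P7 minus Tcf21 P30, the 6 called higher became 4 to 7 with a library left out, 4 with only the groups compared or Tcf21 P7 summed, and 7 with the replicate block, where Col5a2 gained a call (0.0409). In that same comparison, Col5a1, Col5a2 and Col11a2 all gained a call in DESeq2 (adjusted p = 0.0492, 0.0132 and 0.0467). With no filter on low counts they gained one as well (adjusted p = 0.0115, 0.00655 and 9.43e-05 in edgeR). Col5a1 and Col5a2 gained one with library size alone (0.0332 and 0.0133 in edgeR), and Col5a2 with limma (0.0416). The replicate numbers are not shown to pair libraries (correlations of deviations 0.04 to 0.31). The cause of these changes was not tested. Where a group kept a single library, it was assumed to vary as the other groups do.

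Over all genes, calls in Postn P7 minus Tcf21 P7 numbered 2118, 111 to 3250 with a library left out (111 and 118 without a Tcf21 P7 library, 507 and 1106 without a Postn P7 library), 123 with the Tcf21 P7 libraries summed, 3442 with no filter and 3750 without both endothelial-rich libraries. In Tcf21 P30 minus Tcf21 P7 they numbered 5604, 2418 to 6063 with a library left out and 2463 with Tcf21 P7 summed, and in Postn P7 minus Tcf21 P30 4276 and 2810 to 5072. Library size alone moved the median of all genes by 0.11 in both comparisons of Postn P7. Col5a2 per Col5a1 in Postn P7 minus Tcf21 P30, a log2 difference of 0.01, was -0.080 without Postn P7 replicate 1 and -0.021 without Tcf21 P30 replicate 2. With the longest transcript as gene length, ratio levels moved in every group, Col1a2 per Col1a1 to 0.911 and Col3a1 per Col1a1 to 2.00 in Tcf21 P7. The pathway lists were recomputed under the same settings, an alternative added after the data were seen. With the Tcf21 P7 libraries summed, 0 of 13 named genes kept their call in Postn P7 minus Tcf21 P7 and 17 of 23 in Tcf21 P30 minus Tcf21 P7, and 0 changed sign under any setting. With 10 to 14 counts a library, Col24a1 in Tcf21 P30 is the level that depth limits most.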

Other observations

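Genes whose level followed a fibrillar collagen most closely were listed by Pearson correlation of log2 CPM over the 7 libraries. The search covered 9988 genes with a mean of at least 10 CPM. It left out symbols that begin with Gm and a digit or end in Rik. The 7 libraries fall into 3 groups and are not independent points, and no p is given. Col1a2 and Col3a1 were each other's closest genes (r = 0.999). Closest to Col1a1 were Phf13 (0.996), Sema3c, a secreted semaphorin (0.996), and Fndc1 (0.996). Closest to Col5a1 were Pycr1, an enzyme of proline synthesis (0.996), Thbs3, a thrombospondin (0.994), and Morf4l2 (0.994). Pycr1 was at 66.1 CPM in Postn P7 cells, 37.4 CPM in Tcf21 P30 and 94.5 CPM in Tcf21 P7. Closest to Col5a2 were Lrp3, Galnt16 and Efs (0.994 to 0.996).

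The minor chains that stood apart had other neighbours. Closest to Col5a3 were Fxyd1, a regulator of the sodium pump (0.998), Stc2, a secreted stanniocalcin (0.996), and Cdk2ap2 (0.995). Fxyd1 was at 64.5 CPM in Postn P7 cells, 145 CPM in Tcf21 P30 and 99.2 CPM in Tcf21 P7. Closest to Col24a1 were Hs6st2, a heparan sulfate sulfotransferase (0.997), the chaperonin subunit Tcp1 (0.997) and Set (0.996). Closest to Col11a1 were Igsf3, Samd14 and Srgap3 (0.994 to 0.996), to Col11a2 Lsm2, Mief2 and Lrfn4 (0.966 to 0.990), and to Col27a1 Adgrl3, an adhesion receptor (0.991), Syncrip (0.987) and Slc36a4 (0.971). Tcp1 differed far less between groups than Col24a1 did, at 189 CPM in Postn P7 cells, 152 CPM in Tcf21 P30 and 184 CPM in Tcf21 P7, so a high correlation does not mean a change of like size.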
